A study of Homo sapiens with 6 samples.

Results

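LINC RNAs are long non-coding RNAs that were given a number because no function or neighbour had named them. Members were the non-coding genes of the deposited count table whose symbol is LINC followed by digits only and whose raw reads summed to at least 100 over the 6 libraries. They were thus chosen by their summed reads, not by a difference between groups. They numbered 165 of 880 such genes in the table, which listed 22681 genes in all, and the other 715 stayed under 100 reads. RNA sequencing had been done on TPC-1-Len, human papillary thyroid carcinoma cells (TPC-1) selected for resistance to lenvatinib, an inhibitor of several receptor tyrosine kinases. One group carried a short hairpin RNA against KRT15 (shKRT15, n = 3) and the other a non-targeting hairpin (shNC, n = 3). Both groups were resistant and were kept in 10 µM lenvatinib, and no cells without the drug or without resistance were compared. The hairpins were delivered by liposomal transfection, only 1 cell line was used, and the labels name no second hairpin and no clone. The design text calls the libraries biological replicates and does not say whether each was a transfection of its own, so p-values measure only the spread among these samples, which may be technical.

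A long intergenic non-coding RNA is transcribed from its own promoter between coding genes, is usually spliced and polyadenylated, and is not translated into a long protein. Many are kept at low levels because nuclear decay complexes remove the transcript soon after it is made. Some act on chromatin or transcription near their own gene, some act in the cytoplasm, and for most no role is known. The numbers are registry names and by themselves imply no common ancestry, sequence family or pathway. Some members do share sequence or carry another annotation, as given below. Since the libraries were made from purified mRNA, transcripts without a poly(A) tail are captured poorly.

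The library totals were 39868231 to 41343780 reads in shKRT15 and 36286059 to 36808695 reads in shNC. KRT15, a type I keratin of basal epithelial cells, stood at 25.0, 24.3 and 24.9 CPM in shKRT15, against 28.7, 31.9 and 36.2 CPM in shNC (CPM, read counts divided by library size with TMM scaling). The groups did not overlap, and the fall was modest (log2 fold change −0.38 ± 0.10 SE, adjusted p = 0.00465 in edgeR's quasi-likelihood test). Of 12 thyroid and epithelial markers, the thyroid transcription factor gene PAX8 averaged 410.4 CPM in shKRT15 and 375.3 CPM in shNC, and FOXE1 15.3 and 14.6 CPM. HHEX averaged 7.85 and 8.64 CPM, and the simple epithelial keratin gene KRT8 14.9 and 12.9 CPM. Its partner KRT18 rose, to 214.6 CPM in shKRT15 against 115.9 CPM in shNC (log2 fold change 0.89 ± 0.07, adjusted p = 1.37e-08). NKX2-1, TSHR, EPCAM and CDH1 had between 0 and 6 reads over a group, and thyroglobulin (TG) averaged 0.808 CPM in shKRT15 and 1.58 CPM in shNC. Of the 12, 10 were in the table and 6 were tested, with 1 higher, 0 lower and 5 not called.

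Members were set beside the promoters from which they start, 250 bases before to 50 after the start in RefSeq (GRCh38.p14). RefSeq gave a promoter for 116 members. The AP-1 motif, TGANTCA on either strand, is the binding site of the FOS and JUN transcription factors. It stood in 20 of the 116 (17.2%), against 7.76% of 27305 promoters of all genes and 10.5% of 11462 promoters of long non-coding genes. By call it stood in 3 of 15 higher members, 5 of 25 lower members and 12 of 76 members that were not called. Member promoters had a median GC content of 54.7%, against 58.3% for all promoters. Members with the motif near the start are shown as examples of both directions: LINC01094 and LINC02535 were lower in shKRT15, LINC00460 and LINC01929 higher. Capitals mark the AP-1 matches and, in LINC02535, a TATAAA motif that lies on the opposite strand and reads TTTATA here. Sequences run 5′ to 3′ on the gene's own strand.
LINC01094, chr4:78645744-78646043, plus strand: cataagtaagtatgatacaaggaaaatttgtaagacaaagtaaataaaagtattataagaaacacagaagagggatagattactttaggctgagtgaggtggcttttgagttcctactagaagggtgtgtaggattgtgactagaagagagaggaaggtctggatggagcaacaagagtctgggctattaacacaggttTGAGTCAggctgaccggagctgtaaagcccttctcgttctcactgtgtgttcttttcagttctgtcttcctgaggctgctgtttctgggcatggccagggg
LINC02535, chr6:85404753-85405052, minus strand: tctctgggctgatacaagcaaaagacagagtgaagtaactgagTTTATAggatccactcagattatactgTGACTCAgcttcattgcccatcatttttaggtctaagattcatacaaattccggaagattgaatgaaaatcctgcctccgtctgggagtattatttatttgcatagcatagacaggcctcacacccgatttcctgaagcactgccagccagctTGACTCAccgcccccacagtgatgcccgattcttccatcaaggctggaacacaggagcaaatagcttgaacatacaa
LINC00460, chr13:106376314-106376613, plus strand: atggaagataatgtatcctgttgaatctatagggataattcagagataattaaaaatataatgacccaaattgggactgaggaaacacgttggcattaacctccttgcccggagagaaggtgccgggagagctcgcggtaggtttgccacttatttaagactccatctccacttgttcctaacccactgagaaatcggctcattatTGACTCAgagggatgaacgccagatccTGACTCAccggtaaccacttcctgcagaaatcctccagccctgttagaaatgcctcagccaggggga
LINC01929, chr18:55124257-55124556, minus strand: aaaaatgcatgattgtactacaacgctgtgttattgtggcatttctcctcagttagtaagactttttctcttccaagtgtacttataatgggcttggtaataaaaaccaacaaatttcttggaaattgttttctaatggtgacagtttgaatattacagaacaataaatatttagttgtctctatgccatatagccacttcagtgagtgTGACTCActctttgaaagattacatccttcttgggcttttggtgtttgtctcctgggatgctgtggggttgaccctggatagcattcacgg

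The first base of the AP-1 match lay at −51 from the start in LINC01094, −180 and −27 in LINC02535, −44 and −17 in LINC00460 and −41 in LINC01929. LINC01094 read 2.25, 1.40 and 1.86 CPM in shKRT15, against 4.86, 4.97 and 4.12 CPM in shNC (log2 fold change −1.34 ± 0.23, adjusted p = 0.000132). LINC02535 read 7.21, 7.34 and 6.70 CPM in shKRT15, against 10.4, 10.3 and 9.99 CPM in shNC (−0.53 ± 0.13, adjusted p = 0.00308). The groups did not overlap in either gene, and the LINC02535 call was lost once the trend with GC content and gene length in each library was removed (−0.25, adjusted p = 0.101). The E2F motif TTTNNCGC stood in 5.17% of member promoters, 6.9% of all promoters and 4.19% of those of long non-coding genes. The NF-kB consensus stood in 5.17%, 10.8% and 8.85% of the same sets, and TATAAA in 12.9%, 12.0% and 15.2%. For E2F and TATAAA the share of members thus lay between that of all promoters and that of long non-coding genes. All were searched on both strands with overlaps allowed, and a match describes letters, not binding.

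Pooled over levels, members rose less often than all genes tested and fell about as often. Rises made up 32.3% of called members and 49.0% of all called genes. All 165 passed the filter on low counts. Of them 20 rose, 42 fell and 103 did not pass the test at an adjusted p of 0.05, so 37.6% were called, against 45.0% of the 14356 genes tested (22.1% higher and 23.0% lower). Among coding genes 47.7% were called, and among the other 1407 non-coding genes tested 22.9% (10.6% higher and 12.3% lower). The median log2 fold change of members was −0.169, against −0.001 over all genes tested and 0.014 over the other non-coding genes. Split by level, of the 105 members with a mean of at least 1 CPM, 16 rose and 32 fell (45.7% called). Of all genes at that level 49.1% were called, 24.2% higher and 24.9% lower. Of the 60 members under 1 CPM, 4 rose and 10 fell (23.3%), against 18.7% of all genes there (8.32% higher and 10.4% lower). The other non-coding genes rose in 14.5% and fell in 17.7% at 1 CPM or more, and rose in 7.68% and fell in 8.3% below it. Members also had to reach the required sum of reads, and their lowest mean was 0.428 CPM. The genes they were compared with passed only the filter on low counts and include scarcer ones. The shares under 1 CPM, and those of the other non-coding genes at all levels, thus do not compare genes of like level.

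**Figure D1:**
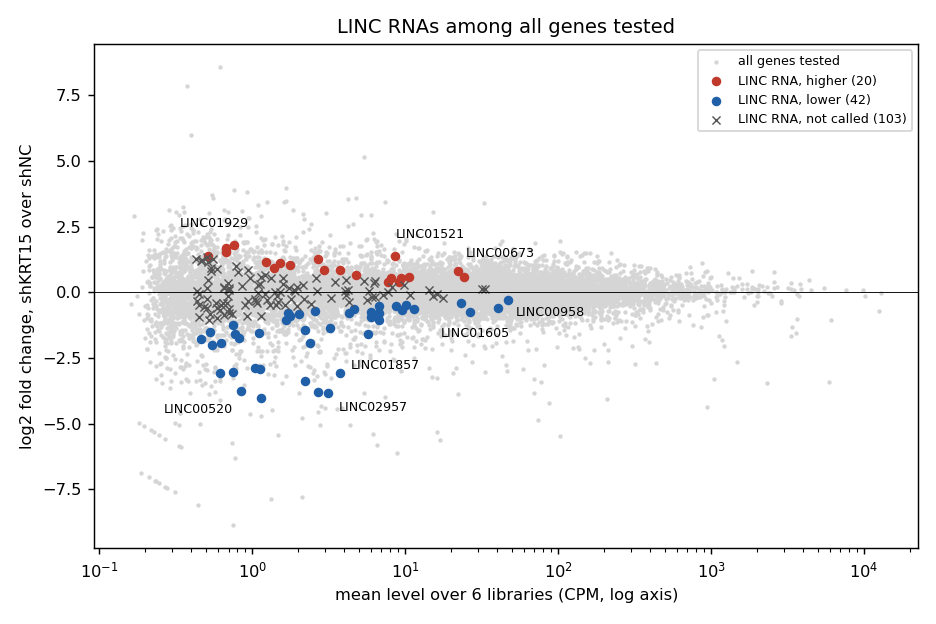
Mean level over the 6 libraries (CPM, log axis) against the log2 fold change of shKRT15 over shNC for all 14356 genes tested (grey) and the 165 LINC RNAs by call. The 20 higher members reach at most 1.81, while lower members reach −4.03.

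Of the 165 members, 9 were called with a rise and 24 with a fall of at least 2-fold. Of all genes tested 3.96% and 4.99% were so called. None rose by at least 4-fold (0.711% of all genes), and 11 fell by that much (1.82%). LINC01559, with 99 reads and thus not a member, rose 5.17-fold. Of those 11 falls 9 were of members with under 50 reads in shKRT15, which can reach the 100-read sum only through shNC. Among the 128 members with at least 50 reads in each group, 5 rises and 10 falls reached 2-fold (3.96% and 4.99% of all genes). In that set 0 rises and 2 falls reached 4-fold (0.711% and 1.82% of all genes). The shares of all genes carry no such cut on reads. Levels of the groups did not overlap in 83 members (50.3%, 30 higher and 53 lower), against 54.0% of all genes. LINC01909 was the called member whose groups overlapped, with 0.904, 0.0932 and 0.124 CPM in shKRT15 and 0.718, 1.49 and 1.58 CPM in shNC. Its call was lost without shKRT15 replicate 2 (adjusted p = 0.147) or 3 (0.149), without shNC replicate 2 (0.108) or 3 (0.0918), with the GC trend removed (0.0782) and with total-count scaling (0.0658). A single comparison of 3 libraries against 3 cannot go below p = 0.1 in an exact permutation test, so calls rest on the fit across all genes. In bulk RNA, fewer cells expressing a gene and less RNA per cell cannot be told apart.

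A sum of 100 reads can be met mostly through 1 group, which favours a difference in members with few reads in the other. In 128 members each group held at least 50 reads, and of these 16 rose and 28 fell. Another 21 had under 50 reads in shKRT15, of which 14 fell and 7 were not called. The remaining 16 had under 50 in shNC, of which 4 rose and 12 were not called. Just inside the threshold stood LINC00526 with 100 reads, LINC02697 with 101, and LINC02516 and LINC00638 with 102. Just outside stood LINC00431 and LINC01559 with 99 reads and LINC00239 with 98. LINC01559 had 24, 20 and 41 reads in shKRT15, against 8, 1 and 5 in shNC. It rose by more than any member (2.37 ± 0.66, adjusted p = 0.00722), and LINC00239 rose as well (1.92 ± 0.60, adjusted p = 0.0152). LINC01002 and LINC01293, with 95 reads each, fell (−2.02 ± 0.64 and −1.54 ± 0.57). The size of the largest rise among members thus depends on the read sum required.

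**Figure D2:**
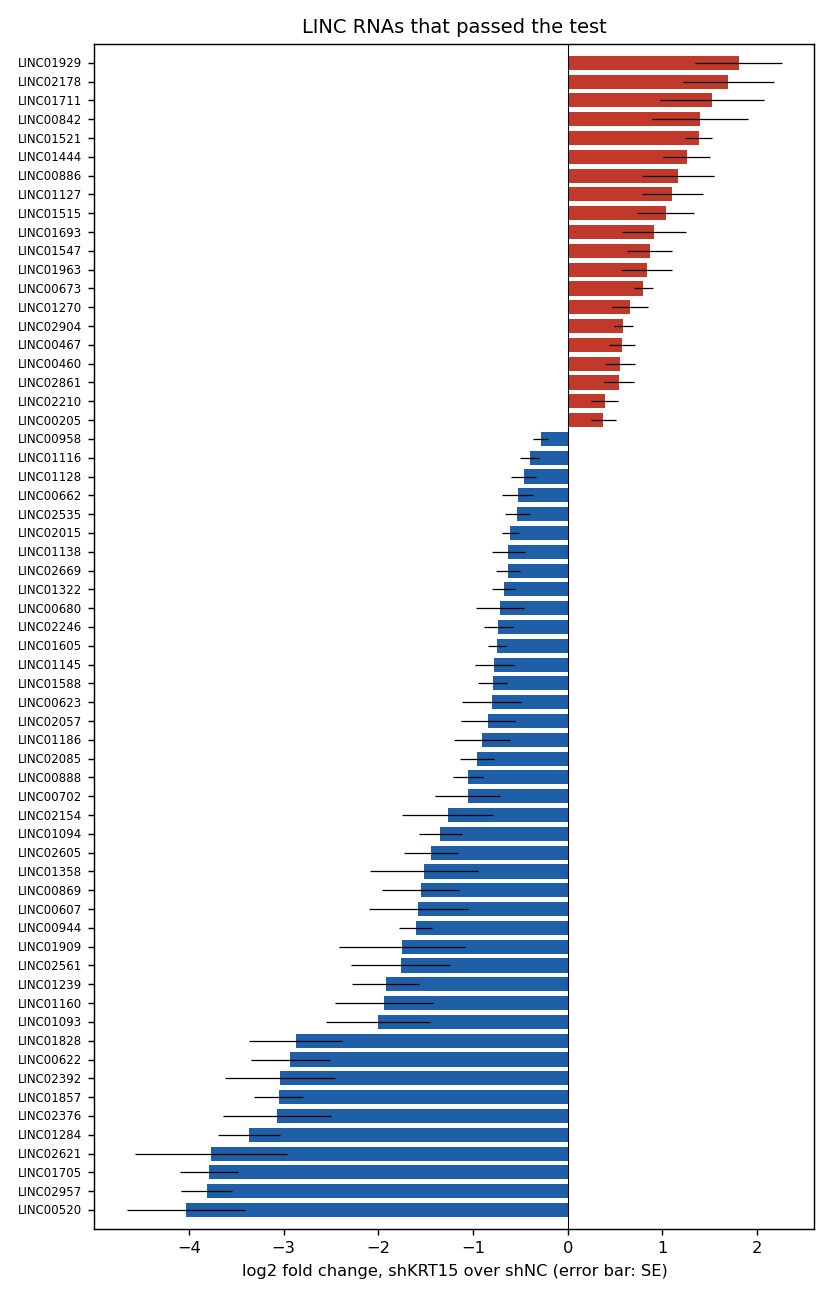
Log2 fold change of shKRT15 over shNC for the 62 LINC RNAs that passed the test, with SE as error bars, ordered from the largest rise (LINC01929, 1.81) to the largest fall (LINC00520, −4.03). Of the 62, 42 lie below 0 and 20 above it.

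Of the 8 most abundant members 4 fell, 2 rose and 2 did not pass the test. They held 35.1% of the summed member level. LINC00958, a transcript studied in bladder and other carcinomas that lies on chromosome 11 (12979534 to 12989548, minus strand, GRCh38.p14), read 42.3, 43.0 and 42.3 CPM in shKRT15, against 50.8, 52.4 and 52.2 CPM in shNC. The groups were tightly grouped and apart, with a log2 fold change of −0.28 ± 0.08 (adjusted p = 0.00749). LINC02015 on chromosome 3 read 34.3, 30.5 and 31.2 CPM in shKRT15, against 47.9, 51.1 and 47.0 CPM in shNC (−0.60 ± 0.09, adjusted p = 2.59e-05). LINC01605 on chromosome 8 read 20.3, 18.0 and 21.2 CPM in shKRT15, against 32.1, 34.9 and 32.7 CPM in shNC (−0.74 ± 0.10, adjusted p = 9.14e-06). All 3 fell, with every shKRT15 library below every shNC library. LINC01116 on chromosome 2 also fell (19.9, 20.4 and 19.3 CPM in shKRT15, against 27.8, 23.4 and 27.5 CPM in shNC, −0.40 ± 0.10).

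LINC00673 and LINC02904 were the abundant members that rose. LINC00673, on chromosome 17 (72403322 to 72592804, minus strand) and studied in pancreatic and other carcinomas, read 28.6, 26.0 and 30.0 CPM in shKRT15, against 15.6, 15.8 and 17.3 CPM in shNC (0.80 ± 0.10, adjusted p = 6.48e-06). LINC02904, which RefSeq lists as LY6S-AS1 and which overlaps the coding gene LY6S, read 30.6, 29.4 and 27.6 CPM in shKRT15, against 18.5, 20.2 and 19.4 CPM in shNC (0.59 ± 0.10, adjusted p = 8.67e-05). The strand setting of the counts is not given in the sources used here, so reads of LY6S and its antisense transcript cannot be separated. LINC00674 (35.5, 30.5 and 37.1 CPM in shKRT15, against 36.1, 30.6 and 28.2 CPM in shNC) and LINC00963 (32.1, 32.0 and 35.3 CPM, against 27.8, 33.9 and 30.3 CPM) overlapped between groups and did not pass the test.

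Per kilobase of exon (RPKM from these CPM values and GENCODE release 29 exon lengths), LINC00674 was the highest of these, at 46.8 in shKRT15 and 43.1 in shNC. LINC01605 followed in shNC, at 13.0 RPKM in shKRT15 and 21.8 in shNC, and LINC00958 stood at 14.8 and 18.0 RPKM. LINC02015 stood at 10.7 and 16.2 RPKM, and LINC00963, whose annotated exons are long, at 2.52 and 2.33 RPKM. Of the 16 members with a mean of at least 10 CPM, 3 rose, 6 fell and 7 did not pass.

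Summed over members, the level was lower in shKRT15. The 165 genes summed to 686.0, 658.9 and 668.6 CPM in shKRT15, against 741.5, 737.5 and 751.5 CPM in shNC, which is 0.0685% and 0.0728% of counted reads. Every shKRT15 library lay below every shNC library. The mean sums were 671.2 and 743.5 CPM, a difference of −72.3 CPM. Called falls summed to −136.6 CPM and called rises to 59.7 CPM. LINC02015, LINC01605, LINC00958, LINC01116 and LINC01857 made up −51.6 CPM of the falls, and LINC00673 (11.99 CPM) and LINC02904 (9.79 CPM) led the rises.

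The largest falls took members of low to middle level close to 0. LINC02957 on chromosome 9 read 0.537, 0.303 and 0.396 CPM in shKRT15, against 5.14, 5.75 and 6.58 CPM in shNC (−3.81 ± 0.27, adjusted p = 5.75e-09, the smallest among members). LINC01705 on chromosome 1 (222041704 to 222059393, minus strand) read 0.244, 0.303 and 0.544 CPM in shKRT15, against 5.41, 4.72 and 5.02 CPM in shNC (−3.79 ± 0.30, adjusted p = 2.18e-08). LINC00520 on chromosome 14, known as LEENE in endothelial cells where it is tied to nitric oxide synthase expression, read 0.318, 0.0699 and 0 CPM in shKRT15, against 2.209, 2.049 and 2.201 CPM in shNC (−4.03 ± 0.62, adjusted p = 6.64e-05). These 3 had 51, 45 and 16 reads over the shKRT15 libraries and 624, 542 and 231 over the shNC libraries, and every shKRT15 library lay below every shNC library. No role was assigned here to LINC02957 or LINC01705.

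LINC01284 on chromosome X, LINC01857 on chromosome 2 and LINC00944 on chromosome 12 started from levels where reads were plentiful in shNC. They had 48, 100 and 352 reads over the shKRT15 libraries, so LINC01284 could reach the 100-read sum only through its shNC reads. LINC01284 read 0.464, 0.210 and 0.495 CPM in shKRT15, against 4.34, 3.45 and 4.29 CPM in shNC (−3.37 ± 0.33). LINC01857 read 0.586, 0.652 and 1.19 CPM in shKRT15, against 7.68, 5.95 and 6.52 CPM in shNC (−3.05 ± 0.26, adjusted p = 5.28e-08). LINC00944 read 2.76, 2.87 and 2.87 CPM in shKRT15, against 7.46, 8.25 and 10.2 CPM in shNC (−1.61 ± 0.17). The SD of LINC00944 was 0.0617 CPM over the shKRT15 libraries and 1.39 CPM over the shNC libraries.

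Other members fell from about 1 to 2 CPM. LINC02621 on chromosome 10 read 0.342, 0 and 0 CPM in shKRT15, against 1.71, 1.63 and 1.41 CPM in shNC (−3.77 ± 0.80, adjusted p = 0.00130), but DESeq2 gave it an adjusted p of 0.0883. It overlaps the span of a coding gene. LINC02376 read 0.122, 0.116 and 0.148 CPM in shKRT15, against 1.55, 0.561 and 1.21 CPM in shNC (−3.07 ± 0.57). LINC02392 read 0.0489, 0.326 and 0.0989 CPM in shKRT15, against 1.30, 1.46 and 1.24 CPM in shNC (−3.04 ± 0.58). LINC00622 (−2.93 ± 0.42) and LINC01828 (−2.87 ± 0.49) completed the 10 largest falls. Moderate falls of members with plentiful reads included LINC00888, listed by RefSeq as the snoRNA host SNHG33 (−1.05 ± 0.16), LINC01322 (−0.68 ± 0.13), LINC01588 (−0.79 ± 0.16) and LINC02669 (−0.63 ± 0.13).

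**Figure D3:**
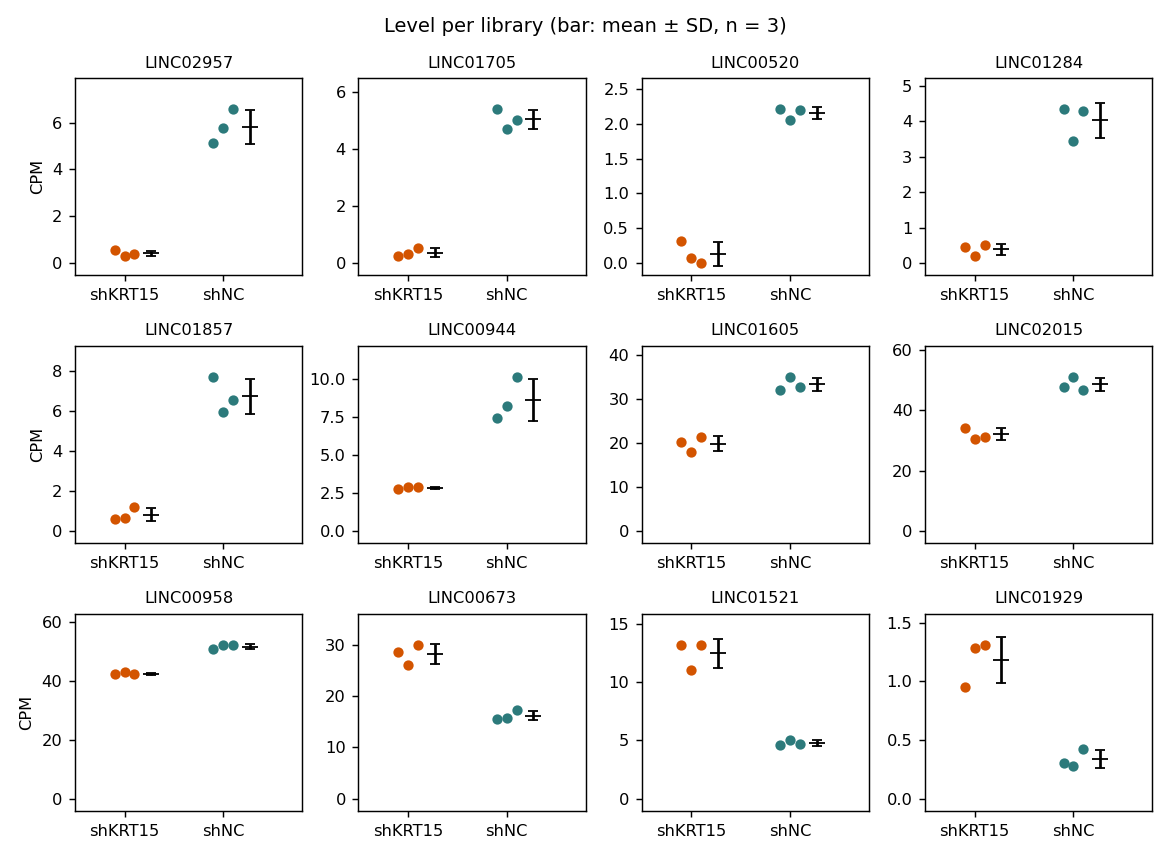
CPM in each library of shKRT15 (orange, left) and shNC (teal, right) for 12 LINC RNAs, 1 panel each, with mean ± SD as black bars (n = 3). The groups do not overlap in any panel, shKRT15 is lower in the first 9 panels and higher in LINC00673, LINC01521 and LINC01929.

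Among members, the largest rises were smaller than the largest falls and mostly of scarce transcripts. LINC01929 on chromosome 18 read 0.953, 1.28 and 1.31 CPM in shKRT15, against 0.304, 0.281 and 0.423 CPM in shNC (1.81 ± 0.46, adjusted p = 0.00373). LINC02178 on chromosome 16 read 1.12, 1.05 and 0.940 CPM in shKRT15, against 0.276, 0.225 and 0.452 CPM in shNC (1.70 ± 0.48, adjusted p = 0.00762). With 36 and 34 reads over the shNC libraries, both ratios rest on few control reads. LINC01521 on chromosome 22 (31346759 to 31351155, plus strand) was the best supported, with 13.19, 11.04 and 13.16 CPM in shKRT15, against 4.61, 5.02 and 4.68 CPM in shNC (1.38 ± 0.14, adjusted p = 4.17e-07). LINC01444, also on chromosome 18, read 4.20, 4.08 and 3.09 CPM in shKRT15, against 1.66, 1.85 and 1.24 CPM in shNC (1.26 ± 0.25, adjusted p = 0.000490).

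Some of the larger rises lost their call when any 1 of several libraries, from either group, was left out. LINC01711 (1.53 ± 0.55, adjusted p = 0.0315) was not called without shKRT15 replicate 1 (0.0801), 2 (0.0560) or 3 (0.115), nor without shNC replicate 1 (0.0835) or 2 (0.121). LINC00842 (1.40 ± 0.51, adjusted p = 0.0331) was not called without shKRT15 replicate 1 (0.0674), 2 (0.0702) or 3 (0.129), nor without shNC replicate 2 (0.0898) or 3 (0.117). LINC00886 (1.17 ± 0.38, adjusted p = 0.0189) was not called without shKRT15 replicate 1 (0.0687) or 3 (0.0639) or shNC replicate 2 (0.0755). LINC00842 also missed the threshold with all genes kept whatever their counts (0.0678) and with the replicate number as a block (0.0549).

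Among members under 0.5 CPM, no rise passed the test. LINC00638 (1.25 ± 0.61), LINC02453 (1.22 ± 0.63) and LINC02870 (1.21 ± 0.65) had the largest positive values. LINC00638 was called without shKRT15 replicate 1 (adjusted p = 0.0437). LINC02561 fell (0.171, 0.233 and 0.223 CPM in shKRT15, against 0.746, 0.646 and 0.762 CPM in shNC, −1.76 ± 0.52, adjusted p = 0.0108), and its call was lost without shKRT15 replicate 1 (0.0598). LINC02697 (−0.94 ± 0.52) and LINC01546 (−0.56 ± 0.56) did not pass. The median SE was 0.404 among members that were not called, at all levels, and 0.27 among called members.

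LINC RNAs reported in carcinoma growth or invasion were taken from a list written from general knowledge, without literature at hand, as were the lists for thyroid carcinoma and small proteins. Of 20 listed, 14 were in the table and 11 were tested, and 4 rose, 2 fell and 5 did not pass (54.5% called, against 45.0% of all genes tested, median 0.434). The rises were LINC00673, LINC00467, LINC00460 and LINC01559, the last of which is not a member and lost its call without shKRT15 replicate 3 (adjusted p = 0.0598). LINC00460, on chromosome 13, read 9.09, 9.34 and 10.5 CPM in shKRT15, against 5.50, 5.98 and 8.24 CPM in shNC (0.55 ± 0.16, adjusted p = 0.00988). LINC00467, which has been reported to encode a small mitochondrial protein, read 12.9, 11.8 and 13.5 CPM in shKRT15, against 8.81, 7.21 and 9.59 CPM in shNC (0.58 ± 0.13, adjusted p = 0.00214). LINC00958 and LINC01116 fell. LINC00941 (−0.16 ± 0.11), LINC00839 (−0.17 ± 0.15), LINC00707 (−0.28 ± 0.47) and LINC00511 (0.65 ± 0.34) did not pass.

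Of 11 LINC RNAs listed for thyroid carcinoma, 7 were in the table and 6 were tested. LINC00460 rose, LINC00520 fell and 4 did not pass (33.3% called, against 45.0% of all genes, median −0.295). LINC02454, a transcript of papillary thyroid carcinoma, read 0.586, 0.396 and 0.396 CPM in shKRT15, against 0.580, 0.898 and 1.04 CPM in shNC (−0.87 ± 0.47, adjusted p = 0.147), and its groups overlapped. LINC01278 (−0.08 ± 0.11), LINC00641 (−0.12 ± 0.20) and LINC01061 (−0.47 ± 0.52) did not pass either. Of 13 LINC symbols reported to encode a small protein, LINC00467 was the single one tested.

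By annotation most members fitted the intergenic name. RefSeq matched all 165 by gene ID and gave 9 of them another symbol, among them RDUR for LINC02085, NTRAS for LINC01693, ASMER1 for LINC02246 and LASP1NB, a coding gene, for LINC00672. GENCODE release 29 matched 150 (90.9%), with 122 called lincRNA, 13 processed transcripts, 6 transcribed unprocessed pseudogenes and the rest in other classes. In 16 members the span overlapped a coding gene, and 3 of those rose and 3 fell. That is 37.5% called, against 37.6% of the members without overlap and 45.0% of all genes tested. In 10 members at least 50% of the longest transcript was shared with another gene at 97% identity. Of these LINC00869, LINC02085, LINC00623 and LINC01145 fell. LINC00623 shared all of its longest transcript with LINC01145, so reads may have been split between them, and the LINC00623 call was lost without any of shKRT15 replicates 2 (adjusted p = 0.154) and 3 (0.0810) or shNC replicates 1 (0.0587), 2 (0.0570) and 3 (0.147), and with total-count scaling (0.0654).

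Members lay on 23 chromosomes. Chromosome 1 held the most, 20, and calls were not compared between chromosomes. Exon GC content had a median of 49.8% over 19 higher members, 45.4% over 39 lower members, 47.4% over 92 members that were not called and 48.1% over 13667 genes tested. The part of GC content in the calls was not tested beyond removing its trend, after which 55 of the 62 calls remained in the same direction. With that trend removed 25 members rose and 38 fell.

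**Figure D4:**
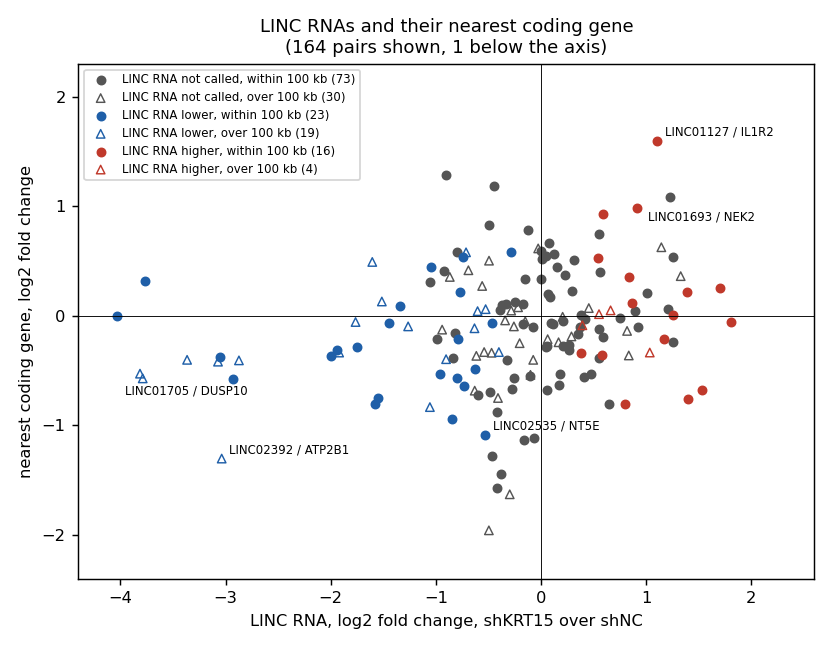
Log2 fold change of each LINC RNA (horizontal) against that of its nearest tested coding gene (vertical), both shKRT15 over shNC, with filled circles for pairs within 100 kb and open triangles for pairs farther apart (164 pairs shown, 1 below the axis). Of the 42 lower members (blue) 23 had a lower neighbour, and of the 20 higher members (red) 7 had a higher one.

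Some intergenic RNAs track the activity of the region they lie in, so each member was set beside its nearest tested coding gene. Of the 42 lower members 23 had a neighbour that fell, 4 one that rose and 15 one that did not pass, where 23.5% of coding genes rose and 24.1% fell. Of the 20 higher members 7 had a higher, 6 a lower and 7 an uncalled neighbour. Of the 103 members that were not called, 26 had a higher and 30 a lower neighbour. For lower members the count was 11 of 20 at 10 to 100 kb and 10 of 19 over 100 kb, and 3 lay closer than that. Some members share a neighbour, so the pairs are not independent. Over all 165 pairs Pearson's r was 0.183 and Spearman's rho 0.224. Over the 44 pairs that overlapped or lay within 10 kb they were −0.00193 and −0.0331. Over the 53 pairs more than 100 kb apart they were 0.158 and 0.284, so the values were not higher for closer pairs. These values describe pairs measured in the same libraries.

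Several members fell together with their neighbour. LINC02535 lies 45281 bases from NT5E, which encodes CD73, the ectoenzyme that makes adenosine (289.0 CPM in shKRT15 and 613.1 CPM in shNC, −1.08 ± 0.07). LINC02392 lies 583952 bases from ATP2B1, a plasma membrane calcium pump gene (109.4 and 269.9 CPM, −1.30 ± 0.09). LINC01705 lies 299615 bases from DUSP10, a phosphatase of JNK and p38 (37.2 and 55.2 CPM, −0.57 ± 0.08). LINC02085 (−0.96 ± 0.18) lies 79837 bases from NFKBIZ, a regulator of NF-kB target genes (198.3 and 286.8 CPM, −0.53 ± 0.07), and LINC02246 (−0.73 ± 0.15) lies 42567 bases from NRIP1, a nuclear receptor corepressor (−0.64 ± 0.10). LINC00702 (−1.06 ± 0.34), 421667 bases from the transcription factor gene KLF6 (−0.83 ± 0.07), lost its call without shKRT15 replicate 1 (adjusted p = 0.0817) or shNC replicate 3 (0.0846).

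Among rises, LINC01127 read 2.27, 2.17 and 1.78 CPM in shKRT15, against 0.773, 1.26 and 0.847 CPM in shNC (1.11 ± 0.32, adjusted p = 0.0102). It ends 6415 bases from IL1R2, the decoy receptor for interleukin 1, which stood at 3.67 CPM in shKRT15 and 1.21 CPM in shNC (1.595 ± 0.263). LINC02904 lies 16800 bases from LY6E, which encodes a GPI-anchored surface protein (241.1 and 126.6 CPM, 0.93 ± 0.07). LINC01693 (0.91 ± 0.34) lies 3634 bases from the mitotic kinase gene NEK2 (0.99 ± 0.09), but was not called without shKRT15 replicate 1 (adjusted p = 0.143) or 2 (0.0931) or shNC replicate 2 (0.0853) or 3 (0.0933). LINC02861 (0.54 ± 0.16) and the adenylyl cyclase gene ADCY9 (0.53 ± 0.11) both rose, the first not without shNC replicate 1 (0.0508). PATZ1, 413 bases from LINC01521, rose slightly (0.21 ± 0.09, adjusted p = 0.0496).

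Other pairs went opposite ways. LINC00673 rose while its neighbour SLC39A11, a zinc transporter gene, fell (19.3 CPM in shKRT15 and 33.8 CPM in shNC, −0.81 ± 0.10). LINC00958 fell while TEAD1, the DNA-binding partner of YAP, rose (123.7 and 82.9 CPM, 0.58 ± 0.10). LINC00205 rose (0.38 ± 0.13) and POFUT2, whose start lies 157 bases away on the other strand, fell (−0.34 ± 0.09). The LINC00205 call was lost without shKRT15 replicate 3 (adjusted p = 0.110) or shNC replicate 2 (0.0542) or 3 (0.0604) and with the GC trend removed (0.123). LINC01711 with STX16 (−0.68 ± 0.08) and LINC00842 with ANXA8L1 (−0.76 ± 0.15) also pointed opposite ways. So did LINC00467 and TRAF5, 7809 bases away, which fell (−0.35 ± 0.11).

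Members that lie close together did not always share a call. LINC01116 and LINC01117 lie 145 bases apart on opposite strands, and LINC01117 stood at −0.54 ± 0.30 without passing the test. LINC00511 and LINC00673 lie 5237 bases apart on the same strand, at 0.65 and 0.80, and only the second was called. LINC00526 and LINC00667, 71 bases apart, were both not called (−0.33 and −0.17). LINC01909 fell and LINC01910, 27681 bases away, stood at 0.05. Whether these values differ within a pair was not tested.

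Long non-coding RNAs with other names were compared from a list of 54, of which 40 were in the table and 30 were tested. Of these 4 rose, 10 fell and 16 did not pass (46.7% called, close to the 45.0% of all genes tested, median −0.316). With the GC trend removed 7 of them rose. MIR100HG, host of the miR-100, let-7a-2 and miR-125b-1 cluster, averaged 10.9 CPM in shKRT15 and 44.4 CPM in shNC (−2.02 ± 0.10, adjusted p = 9.98e-11). LUCAT1, a stress-induced transcript, averaged 4.07 and 14.5 CPM (−1.83 ± 0.15). MIR17HG, host of the miR-17-92 cluster (−3.58 ± 0.70), MIR22HG (−0.69 ± 0.11), LINC-PINT (−1.03 ± 0.19) and MALAT1, the nuclear speckle RNA (−0.52 ± 0.12), fell as well. The MIR17HG ratio rests on few reads, 3, 5 and 2 in shKRT15, against 11, 42 and 53 in shNC. CCAT1, transcribed upstream of MYC, averaged 52.2 CPM in shKRT15 and 24.6 CPM in shNC (1.09 ± 0.09), and DANCR rose by 0.58 ± 0.13. NEAT1, the scaffold of paraspeckles, rose by 0.36 ± 0.12 (adjusted p = 0.0226), though not without shKRT15 replicate 2 (0.124) or shNC replicate 3 (0.0603).

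Genes of the nuclear complexes that trim or terminate such transcripts were called about as often as other coding genes. Of 43 tested members of the exosome, its cofactors, the Integrator and the cap-binding complex, 14 rose, 7 fell and 22 did not pass (48.8% called, against 47.7% of all coding genes, median 0.096). SRRT, which encodes the cap-complex protein ARS2, averaged 101.7 CPM in shKRT15 and 59.2 CPM in shNC (0.78 ± 0.08, adjusted p = 7.26e-07). The Integrator scaffold gene INTS1 (0.74 ± 0.08), ZC3H18 (0.63 ± 0.09) and ZC3H4 (0.66 ± 0.11) rose too. DIS3, a catalytic exosome subunit, averaged 49.0 CPM in shKRT15 and 87.7 CPM in shNC (−0.84 ± 0.08, adjusted p = 3.68e-07). C1D, an exosome cofactor gene, fell (−0.62 ± 0.10) but not with the GC trend removed (adjusted p = 0.203). The number of falls was 4 with that trend removed, and also 4 without shKRT15 replicate 1 or 3 or shNC replicate 1 or 2. Whether these genes bear on the LINC RNA levels was not tested.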

How the data were processed

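RNA sequencing of 6 TPC-1-Len libraries was deposited as raw counts, and the authors had applied no normalization to the deposited values. Per the submitters' processing notes the build was GRCh38; no aligner, counting tool, annotation or strand setting is given in the sources used here. Groups came from the titles. Counts were tested with edgeR 4.0.16 in R 4.3.3 (quasi-likelihood, TMM, filterByExpr with minimum count 10 and minimum total 15), with Benjamini-Hochberg adjustment over all genes tested and calls at an adjusted p under 0.05. The fit was tested on simulated data. Positions and promoters came from RefSeq (GRCh38.p14), exon lengths, types and GC content from GENCODE release 29. Alternatives were DESeq2 1.42.0, limma-voom 3.58.1, size factors, total-count scaling, other filters, a replicate block, removal of the GC and length trend (chosen after seeing the data) and leaving out each library.

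Members, lists and the rule for naming genes were chosen with earlier results of these data known. The rule took the 8 most abundant members, the 8 largest rises and falls, the 4 smallest p-values in each direction, members at the 100-read threshold, the 3 largest changes under 0.5 CPM, members on fixed lists and those with a called neighbour within 10 kb. Not all of the last are named. Of 33 members within 10 kb without overlap, 11 had a higher and 10 a lower neighbour. Of 11 that overlapped their neighbour, 1 had a higher and 3 a lower one. From the other lists the rule took the 4 smallest p-values. All other genes named were chosen after their values were seen. Libraries of 1 group differed beyond sampling noise (chi-square per degree of freedom 6.05 to 29.0), so all 6 entered separately.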

Additional observations from a re-analysis of the deposited data

How the results depend on the processing

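None of the 62 called members changed sign under the other settings of the fit in which it was tested. A minimum of 1 CPM in 3 libraries left 110 members to test, 16 of the 20 rises and 34 of the 42 falls among them. Under the other 13 settings, 10 rises and 29 falls kept their call in every one, and 8 and 26 kept it under all 14. The number of higher members ranged from 15 to 18 and that of lower members from 35 to 38 when 1 library was left out. Of the 62 calls, 48 (without shNC replicate 2) to 55 (without shNC replicate 1) remained when 1 library was left out, 50 with the 1 CPM minimum, 61 with DESeq2, 62 with limma-voom, 58 with total-count scaling and 55 with the trend in GC content and gene length removed. That removal gave 7 higher genes on the list of other named long non-coding RNAs and 4 lower genes on the nuclear decay list, which ranged from 4 to 7 without single libraries; the cause was not tested. Members with higher calls made up 32.3% of called members with TMM, 38.7% with total-count scaling and 39.7% with the trend removed. Among all called genes, rises made up 49.0%, 58.0% and 53.5% under the same settings. Total-count scaling moved the median of all genes to 0.059 on the log2 scale. With a replicate block 20 members rose and 42 fell; the numbers did not pair the libraries, since correlations of same-numbered deviations were 0.019, −0.007 and 0.046. Minimum sums of 50 and 200 reads gave 27 and 16 higher and 48 and 32 lower members. Leaving out members that overlap a coding gene or share sequence gave 16 higher and 35 lower. Of all genes tested 22.1% rose and 23.0% fell. These member sets differ in size, so the counts do not show whether the share called changed. Of members under 1 CPM 23.3% were called and of those at or above it 45.7%; the part of depth in this was not tested.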
